A study of Homo sapiens with 9 samples.

Results

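Complexes I to IV of the respiratory chain are built mostly from proteins encoded in the nucleus, and 58 of the genes for these proteins were described here: 35 of complex I, 4 of complex II, 9 of complex III and 10 of complex IV. They were listed by name, with earlier results of these data known, and each symbol matched 1 of the 58884 Ensembl identifiers in the deposited tables. The list leaves out a few subunits, among them NDUFAB1 and NDUFA4, which were counted apart. Of the 58 genes, 56 reached 0.5 FPKM (fragments per kilobase of exon, scaled to library size, a level per unit of length) in at least 3 libraries and were tested. The other 2, NDUFA7 and NDUFV2, did not.

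RNA came from HK-2 cells, a single line of human renal proximal tubule epithelium immortalised with papillomavirus genes and grown without serum, in medium with bovine pituitary extract and EGF. The 9 libraries formed 3 groups of 3. Control cells are labelled untreated and, per the protocol, were given vehicle. The PM2.5 group had fine airborne particulate matter added for 24 h. The last group was given lactoferrin, an iron-binding milk protein, for 6 h and then PM2.5 for 18 h. It therefore differed from the PM2.5 group both in lactoferrin and in the time with particles, and cells given lactoferrin alone were not analysed here. The series text gives doses of 1 mg/ml for PM2.5 and 40 mg/ml for lactoferrin, units that could not be checked. Nothing in the labels says that replicates were separate cultures, and each p-value measures only how much these samples vary, which may be technical variation.

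The libraries held 15313495 to 18820499 assigned reads or fragments. Replicates differed beyond sampling noise in each group, and control 3, PM2.5 1 and lactoferrin plus PM2.5 1 stood apart. The chi-square per gene was 39.2 and 23.4 between control 3 and the other controls, against 8.28 between those. It was 13.6 and 16.4 between PM2.5 1 and its group, against 2.43. For lactoferrin plus PM2.5 1 and its group it was 28.1 and 52.9, against 9.30. Of 26 proximal tubule markers, 17 were under 0.5 FPKM in every library, SLC22A6 was at 0 throughout, and LRP2, CUBN and HNF4A were at most 0.0289 FPKM as group means, so these defining markers were at or near 0. The summed level of the 26 was 77.5 to 86.5 FPKM in control, 122 to 134 FPKM with PM2.5 and 127 to 137 FPKM with lactoferrin plus PM2.5. PAX8 (group means 52.2, 82.3 and 73.7 FPKM) and MIOX (6.18, 19.98 and 30.2 FPKM) carried most of that difference. SLC4A4 (6.79, 3.51 and 3.18 FPKM) and ALPL (0.937, 0.363 and 0.312 FPKM) went the other way. Of 6 markers of simple epithelium 5 passed the filter. The sums over all 6 were 336 to 368, 281 to 293 and 286 to 373 FPKM in the same order of groups. Of 10 immune cell markers 3 passed, and the summed level of all 10 was 1.63 to 2.63, 3.71 to 4.51 and 6.92 to 8.53 FPKM. FCER1G alone carried most of that difference (group means 0.31, 2.45 and 5.68 FPKM), CD14 went the other way (0.913, 0.484 and 0.449 FPKM), and PTPRC was at most 0.00386 FPKM. Of 10 fibroblast and endothelial markers 3 passed. The sums over all 10 were 48.4 to 54.7, 66.5 to 68.3 and 51.1 to 55.4 FPKM, led by LUM (42.95, 64.9 and 51.1 FPKM). COL1A1 instead went from 6.77 to 1.42 and 1.14 FPKM. Of 12 distal and collecting duct markers 1 passed.

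The respiratory chain passes electrons from NADH and succinate to oxygen and uses the energy released to pump protons across the inner mitochondrial membrane. Complex I takes electrons from NADH and complex II from succinate, both hand them to coenzyme Q, complex III passes them on to cytochrome c, and complex IV gives them to oxygen. Complexes I, III and IV each join a few subunits made from mitochondrial DNA to many made in the nucleus, whereas complex II is wholly nuclear and is also an enzyme of the tricarboxylic acid cycle. Proximal tubule cells of the kidney are rich in mitochondria, since they reabsorb solutes with energy from oxidative phosphorylation. In bulk RNA, fewer cells of a type and less RNA per cell cannot be told apart.

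In control cells the median subunit level was 12.5 FPKM for complex I, 13.1 FPKM for complex II, 32.2 FPKM for complex III and 51.1 FPKM for complex IV. FPKM understates genes whose union exons (all exons of a gene, each base counted once) exceed their transcripts. For tested genes of complexes I to IV, the median union exon length was 2263, 5610, 2151 and 1682 bases. The part of length in the order of levels was not tested. NDUFS5, a small accessory subunit of complex I in the intermembrane space, had the highest level of all 58 genes, a mean of 275 FPKM over the 9 libraries. The other complexes were led by SDHB (40.1 FPKM), the iron-sulfur protein of complex II, by UQCRH (92.9 FPKM), the hinge protein of complex III, and by COX7C (68.01 FPKM) of complex IV. The lowest were NDUFV2 (0.233 FPKM), an iron-sulfur subunit of complex I, SDHA (1.56 FPKM), the flavoprotein of complex II, UQCRC2 (10.7 FPKM), a core protein of complex III, and COX6C (19.98 FPKM) of complex IV.

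Low levels of some subunits stood beside shared exons. For 9 genes, at least 50% of the coding bases lay within exons of another gene in GENCODE v29 (a threshold set after the values were seen), and their median level was 5.38 FPKM against 24.3 FPKM for the other 49. The share was 84.7% for NDUFV2 and 78.3% for NDUFA7, whose levels were 0.289, 0.356 and 0.317 FPKM and 0.0924, 0.299 and 0.203 FPKM in the control libraries. It was also 100% for UQCR11 (12.97 FPKM), 85.2% for NDUFB8, 76.9% for NDUFC2, 67.9% for NDUFA9, 55.2% for NDUFA13, 55.1% for COX8A and 53.5% for COX6A1 (42.3 FPKM), so the level did not follow the share in every case. Of 113 processed or other pseudogenes named after 32 of the genes, 7 passed the filter; SDHAP1 and its parent SDHA had mean levels of 3.12 and 1.56 FPKM. How the authors' counting assigned reads of such shared or near-identical sequence is not given in the sources used here. The levels of these genes are uncertain, and the part of shared exons in them was not tested.

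**Figure D1:**
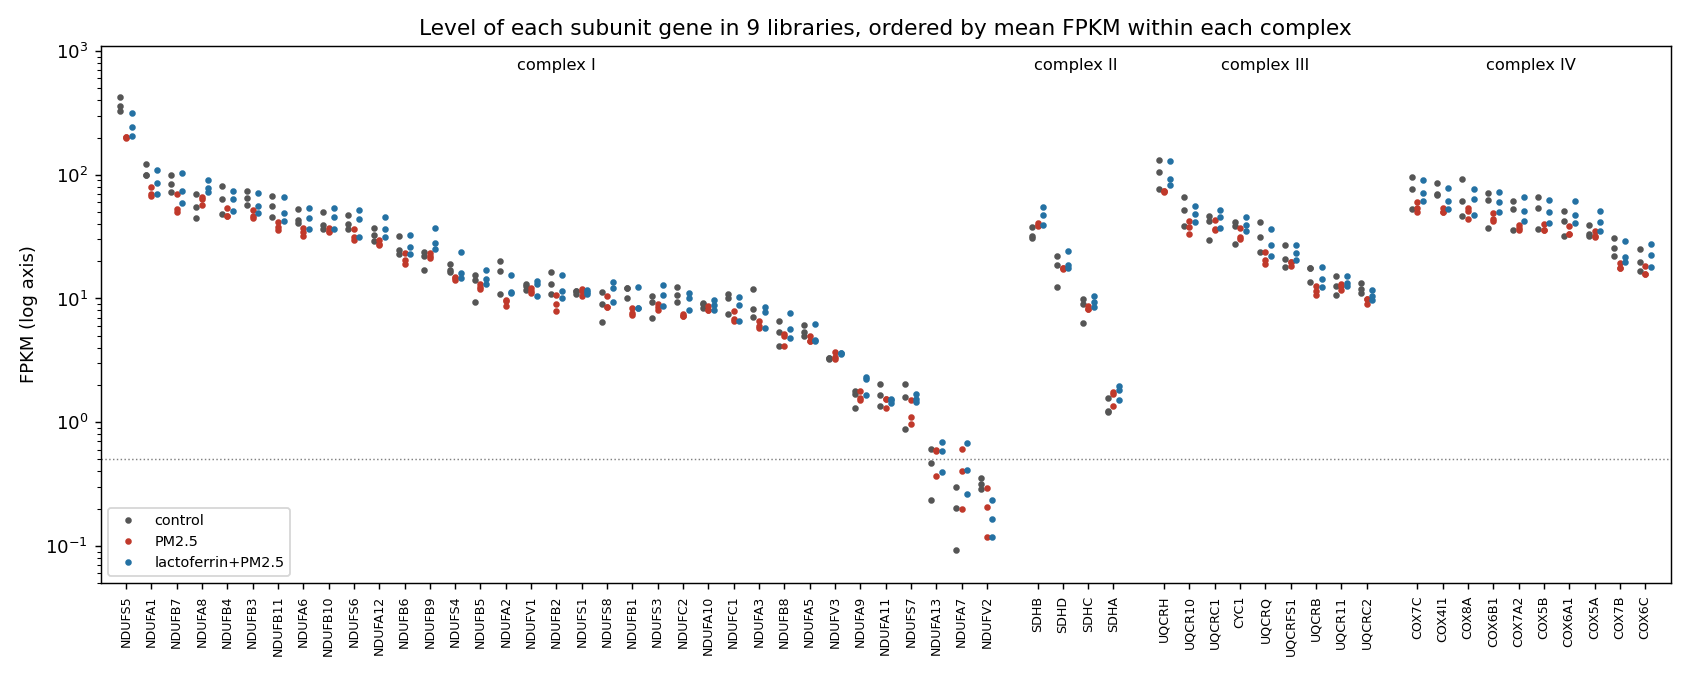
Level of each of the 58 subunit genes in each of the 9 libraries (FPKM, log axis), ordered within complexes I to IV, with 1 point per library coloured by group. NDUFS5 stands highest, between 200 and 424 FPKM, and NDUFA7, NDUFA13 and NDUFV2 lie lowest.

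Genes for respiratory subunits are known to share promoter elements bound by NRF1, by ETS factors such as GABP, and by YY1. Promoters are shown here because many of the genes differed in the same direction in the comparisons that follow. RefSeq promoters of build GRCh38.p14 (250 bases before to 50 after the start) matched 50 of the 58 genes by symbol. NDUFB5, NDUFB9, NDUFC2, NDUFS5, SDHC, UQCRB, CYC1 and COX6C did not match. There were 35116 promoter entries for 27305 symbols. Only the first entry listed for a symbol was used, so the counts depend on that choice. The NDUFA5 window (chromosome 7, 123601602 to 123601901), which held no motif, lay outside the span of that gene in GENCODE v29 (123536997 to 123558255). Exact matches on either strand were sought to GCGCANGCG for NRF1, CCGGAAG for ETS factors and AAGATGGCG for YY1. None of the 3 contains another, although neighbouring matches may overlap. The sequences below run 5′ to 3′ along the gene from 250 bases before the start to 30 after it, with matches in capitals. Of 10 matched promoters of genes that fell with PM2.5, 3 held a motif, and of these NDUFA1 and COX4I1 are shown. NDUFA8 and SDHB are shown because they were higher with lactoferrin plus PM2.5 than in control.
NDUFA1, chrX:119871582-119871861, plus strand: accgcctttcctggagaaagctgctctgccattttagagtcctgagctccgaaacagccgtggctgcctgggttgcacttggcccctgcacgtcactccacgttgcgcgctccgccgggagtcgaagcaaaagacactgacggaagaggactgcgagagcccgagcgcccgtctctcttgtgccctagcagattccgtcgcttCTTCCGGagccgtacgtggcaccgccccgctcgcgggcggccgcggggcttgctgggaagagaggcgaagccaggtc
COX4I1, chr16:85799445-85799724, plus strand: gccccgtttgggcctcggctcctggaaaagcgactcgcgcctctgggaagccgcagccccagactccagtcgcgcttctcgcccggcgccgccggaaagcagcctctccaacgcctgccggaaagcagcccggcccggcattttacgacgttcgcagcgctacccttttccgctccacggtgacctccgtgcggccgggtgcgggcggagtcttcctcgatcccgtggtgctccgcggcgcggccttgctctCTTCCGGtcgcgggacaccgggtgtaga
NDUFA8, chr9:122159750-122160029, minus strand: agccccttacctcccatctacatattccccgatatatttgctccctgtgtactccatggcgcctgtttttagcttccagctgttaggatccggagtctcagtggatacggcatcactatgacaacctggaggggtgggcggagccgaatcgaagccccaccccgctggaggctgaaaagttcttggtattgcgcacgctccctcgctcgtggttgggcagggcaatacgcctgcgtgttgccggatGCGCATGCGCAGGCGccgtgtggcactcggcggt
SDHB, chr1:17054003-17054282, minus strand: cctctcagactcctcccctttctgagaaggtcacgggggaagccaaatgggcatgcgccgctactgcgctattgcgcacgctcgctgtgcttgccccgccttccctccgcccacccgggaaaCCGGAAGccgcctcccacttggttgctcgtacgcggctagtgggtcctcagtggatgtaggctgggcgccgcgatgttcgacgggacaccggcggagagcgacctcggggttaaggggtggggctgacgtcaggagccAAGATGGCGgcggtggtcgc

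NDUFA1 and COX4I1 each held the ETS letters once, on the opposite strand. NDUFA8 held a run of 3 overlapping NRF1 matches and SDHB 1 ETS and 1 YY1 match. At least 1 of the 3 motifs was in 30 of the 50 promoters (60%), against 18.3% of 27305 promoters of the same length. By complex the counts were 16 of 31 for complex I, 3 of 3 for complex II, 6 of 7 for complex III and 5 of 9 for complex IV. Among genes that fell with PM2.5, 3 of 10 matched promoters held a motif (NDUFA1, NDUFA3 and COX4I1), and among tested genes that were not called 26 of 38 did. NRF1 letters were in 15 of the 50, ETS letters in 15 and YY1 letters in 7, against 8.05%, 10.7% and 1.85% of all promoters. These are matches of letters and not measured binding.

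The first comparison asked how the subunit genes differed after PM2.5. Of the 56 tested genes 13 fell (23.2%) and 0 rose (limma, Benjamini-Hochberg over 14454 genes, adjusted p under 0.05). The background over all tested genes was 16.5% lower and 18.5% higher. The fitted log2 fold change was negative for 49 of the 56 genes and positive for 7, with a median of -0.31 against 0.00 over all tested genes. No gene was higher at an unadjusted p under 0.05, where 23.5% of all tested genes were, and limma-voom on rebuilt reads also called 0 higher. In 19 of the genes every PM2.5 library was below every control library, against 22.7% of all tested genes, and in 1, SDHB, every one was above. The genes that fell were 9 of 33 in complex I, 0 of 4 in complex II, 2 of 9 in complex III and 2 of 10 in complex IV, and the median log2 fold changes were -0.27, 0.07, -0.37 and -0.43 in that order.

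NDUFS5 (ENSG00000168653, chromosome 1, 39026318 to 39034636, plus strand, GENCODE v29 on GRCh38) fell furthest among the 56. Its levels were 424, 325 and 359 FPKM in control, 202, 201 and 200 FPKM with PM2.5, and 318, 242 and 206 FPKM with lactoferrin plus PM2.5. The PM2.5 libraries lay within a few FPKM of each other and far below all controls, while lactoferrin plus PM2.5 1 alone came near the lowest control. The means were 369 ± 50.1 FPKM in control and 201 ± 0.802 FPKM with PM2.5 (SD, n = 3 each). The log2 fold change was -0.92 ± 0.17 (SE; adjusted p = 0.00286, limma).

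The other complex I genes that fell encode accessory subunits. NDUFC2 (ENSG00000151366, chromosome 11, 78068304 to 78080219, minus strand), an accessory subunit of the membrane arm, had 12.4, 10.6 and 9.44 FPKM in control, 7.23, 7.53 and 7.18 FPKM with PM2.5, and 11.1, 10.1 and 8.12 FPKM with lactoferrin plus PM2.5. All PM2.5 libraries were below all others, and the log2 fold change was -0.57 ± 0.12 (adjusted p = 0.00677, limma). NDUFS5 and NDUFC2 were the only members called under all 24 alternative settings and library sets run; the exons NDUFC2 shares with the readthrough gene NDUFC2-KCTD14, listed at 0 FPKM on average, leave its level uncertain.

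NDUFA1 (ENSG00000125356, chromosome X, 119871487 to 119876662, plus strand), a small membrane-anchored subunit needed for assembly, had 122, 99.8 and 100 FPKM in control, 79.6, 69.7 and 67.04 FPKM with PM2.5, and 110, 86.1 and 69.3 FPKM with lactoferrin plus PM2.5. Its log2 fold change was -0.62 ± 0.17 (adjusted p = 0.0205, limma), with no overlap between control and PM2.5, while the lactoferrin plus PM2.5 libraries spanned from the PM2.5 range into the control range. Of its exon bases, 44.5% also lie in RNF113A on the opposite strand, whose mean level was 9.83 FPKM. NDUFA2, which has a thioredoxin-like fold, had 20.01, 16.8 and 10.8 FPKM in control, 9.53, 9.74 and 8.66 FPKM with PM2.5, and 15.4, 11.04 and 11.3 FPKM with lactoferrin plus PM2.5. It changed by -0.75 ± 0.20 on the log2 scale (adjusted p = 0.0165, limma), and the lowest control was above the highest PM2.5 library by little. NDUFA3, a single-pass membrane subunit, had 11.9, 8.15 and 7.02 FPKM in control, 6.01, 6.55 and 5.78 FPKM with PM2.5, and 8.57, 7.77 and 5.80 FPKM with lactoferrin plus PM2.5, a log2 fold change of -0.54 ± 0.18 with an adjusted p of 0.0454, near the threshold.

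The 4 called membrane-arm genes of the NDUFB series followed the same order, control above PM2.5. NDUFB1 had 12.1, 10.01 and 12.1 FPKM in control, 8.33, 7.39 and 7.58 FPKM with PM2.5, and 12.3, 8.39 and 8.34 FPKM with lactoferrin plus PM2.5 (log2 fold change -0.57 ± 0.16, adjusted p = 0.023, limma). For NDUFB2 the levels were 16.4, 12.97 and 10.9 FPKM in control, 10.7, 9.03 and 7.88 FPKM with PM2.5, and 15.4, 11.5 and 10.1 FPKM with lactoferrin plus PM2.5 (log2 fold change -0.56 ± 0.19, adjusted p = 0.0433, limma). In both genes the controls lay above all PM2.5 libraries, though for NDUFB2 narrowly. NDUFB3 had 74.5, 64.3 and 57.3 FPKM in control, 52.05, 46.7 and 45.1 FPKM with PM2.5, and 71.8, 56.3 and 49.1 FPKM with lactoferrin plus PM2.5 (log2 fold change -0.49 ± 0.15, adjusted p = 0.0317, limma). The levels of NDUFB11, an X-linked subunit, were 67.4, 56.1 and 45.8 FPKM in control, 41.6, 38.1 and 35.6 FPKM with PM2.5, and 65.7, 49.1 and 42.2 FPKM with lactoferrin plus PM2.5 (log2 fold change -0.58 ± 0.18, adjusted p = 0.0299, limma). NDUFB3 and NDUFB11 likewise separated control from PM2.5, and in both the highest library with lactoferrin plus PM2.5 was replicate 1, close to the highest control.

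NDUFB7, a twin-cysteine subunit of the intermembrane space, had 98.9, 83.8 and 71.9 FPKM in control, 70.3, 52.4 and 49.995 FPKM with PM2.5, and 103, 73.4 and 58.9 FPKM with lactoferrin plus PM2.5. Control and PM2.5 did not overlap, but the log2 fold change of -0.61 ± 0.22 did not pass the test (adjusted p = 0.0542, limma). The core subunits of complex I that carry flavin or iron-sulfur clusters or line the path of electrons gave small differences: NDUFS1 was at 11.3 ± 0.319 FPKM in control and 11.3 ± 0.717 FPKM with PM2.5, and NDUFV1, which binds NADH and flavin, at 12.5 ± 0.722 and 11.5 ± 0.585 FPKM. Their log2 fold changes were -0.04 ± 0.08 and -0.16 ± 0.11, and those of NDUFS3, NDUFS7 and NDUFS8 were -0.08 ± 0.16, -0.25 ± 0.20 and 0.03 ± 0.19. None of the 5 was called. NDUFV2, also of this core, had 0.289, 0.356 and 0.317 FPKM in control, 0.119, 0.206 and 0.293 FPKM with PM2.5, and 0.118, 0.236 and 0.164 FPKM with lactoferrin plus PM2.5 and could not be tested, and NDUFA7 had 0.0924, 0.299 and 0.203 FPKM in control, 0.608, 0.197 and 0.402 FPKM with PM2.5, and 0.263, 0.412 and 0.675 FPKM with lactoferrin plus PM2.5, too low as well. The other 18 tested genes of complex I (NDUFA5, NDUFA6, NDUFA8 to NDUFA13, NDUFB4 to NDUFB6, NDUFB8 to NDUFB10, NDUFC1, NDUFS4, NDUFS6 and NDUFV3) had log2 fold changes from -0.43 to 0.12, and the closest to a call was NDUFA6 (-0.43 ± 0.15, adjusted p = 0.0541, limma). Over all 33, the log2 fold changes ranged from -0.92 to 0.12.

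No complex II gene was called. SDHB (ENSG00000117118, chromosome 1, 17018722 to 17054170, minus strand) had 37.6, 30.9 and 32.02 FPKM in control, 40.5, 38.5 and 39.6 FPKM with PM2.5, and 55.3, 47.4 and 39.2 FPKM with lactoferrin plus PM2.5. Each PM2.5 library was slightly above each control, a log2 fold change of 0.19 ± 0.13 that did not pass the test (adjusted p = 0.298, limma). SDHA had 1.56, 1.20 and 1.22 FPKM in control, 1.34, 1.70 and 1.76 FPKM with PM2.5, and 1.82, 1.95 and 1.52 FPKM with lactoferrin plus PM2.5, with overlapping groups (log2 fold change 0.16 ± 0.12). The membrane anchors SDHC and SDHD had log2 fold changes of -0.04 ± 0.14 and -0.02 ± 0.18. With 4 genes the complex gives few values, and whether it differed from the other complexes was not tested.

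In complex III, UQCRC2 and UQCRB fell. UQCRC2, a core protein of the matrix side, had 13.3, 11.9 and 11.1 FPKM in control, 9.83, 9.87 and 9.05 FPKM with PM2.5, and 11.7, 10.4 and 9.64 FPKM with lactoferrin plus PM2.5 (log2 fold change -0.37 ± 0.10, adjusted p = 0.0184, limma). UQCRB, which sits near the coenzyme Q site, had 17.7, 13.7 and 17.7 FPKM in control, 12.7, 11.5 and 10.7 FPKM with PM2.5, and 18.1, 14.3 and 12.3 FPKM with lactoferrin plus PM2.5 (log2 fold change -0.52 ± 0.16, adjusted p = 0.0352, limma). Both separated control from PM2.5 completely. UQCRQ and UQCRH had fitted differences of similar or greater size but wider spread. UQCRQ had 41.7, 31.4 and 23.6 FPKM in control, 23.8, 20.6 and 19.1 FPKM with PM2.5, and 36.1, 26.9 and 22.2 FPKM with lactoferrin plus PM2.5, with control 3 inside the PM2.5 range (log2 fold change -0.61 ± 0.22, adjusted p = 0.052, limma). UQCRH had 132, 105 and 76.01 FPKM in control, 72.8, 73.8 and 73.9 FPKM with PM2.5, and 128, 91.8 and 82.8 FPKM with lactoferrin plus PM2.5 (log2 fold change -0.52 ± 0.20, adjusted p = 0.0697, limma). The subunits that carry the redox centres, CYC1 (cytochrome c1) and UQCRFS1 (the Rieske protein), had log2 fold changes of -0.15 ± 0.15 and -0.21 ± 0.14 and were not called. The remaining UQCRC1, UQCR10 and UQCR11 had -0.06 ± 0.17, -0.48 ± 0.18 and -0.08 ± 0.12, not called either.

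In complex IV, COX4I1 and COX7B fell. COX4I1, the common isoform of the subunit that binds regulatory nucleotides, had 86.3, 69.6 and 68.7 FPKM in control, 54.3, 50.04 and 50.1 FPKM with PM2.5, and 78.8, 60.9 and 53.2 FPKM with lactoferrin plus PM2.5 (log2 fold change -0.58 ± 0.15, adjusted p = 0.0159, limma). COX7B had 30.7, 25.6 and 21.9 FPKM in control, 19.4, 17.6 and 17.7 FPKM with PM2.5, and 28.9, 21.8 and 19.7 FPKM with lactoferrin plus PM2.5 (log2 fold change -0.54 ± 0.15, adjusted p = 0.0234, limma). In both, every PM2.5 library was below every control. COX7C had 95.6, 77.1 and 52.6 FPKM in control, 59.9, 54.3 and 49.7 FPKM with PM2.5, and 90.4, 71.5 and 61.04 FPKM with lactoferrin plus PM2.5, with control 3 inside the PM2.5 range, and COX6C had 25.2, 19.8 and 16.6 FPKM in control, 18.4, 15.7 and 15.9 FPKM with PM2.5, and 27.8, 22.4 and 18.1 FPKM with lactoferrin plus PM2.5, with control 3 there too. Their log2 fold changes of -0.47 ± 0.20 and -0.33 ± 0.18 did not pass the test. The other 6 (COX5A, COX5B, COX6A1, COX6B1, COX7A2 and COX8A) lay between -0.49 for COX5B and -0.13 for COX5A, and none was called. All 10 fitted differences of complex IV were negative.

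A grouping made after the values were seen set the 12 core subunits (6 of complex I with the flavin and iron-sulfur path, the 4 of complex II, CYC1 and UQCRFS1) against the 46 accessory or structural ones. Of 11 core genes tested 0 were called, with a median log2 fold change of -0.04 from -0.25 to 0.19. Of 45 accessory or structural genes 13 fell (28.9%), with a median of -0.42 from -0.92 to 0.12. These 13 include UQCRC2, placed here although described above as a core protein of complex III. The membrane anchors SDHC and SDHD were counted as core, so the counts depend on how such genes were assigned. Over all tested genes 16.5% were lower. The core genes were also longer, with a median union exon length of 4523 bases against 1922. Over all 56 genes, the median union exon length was 2475 bases for the 13 that fell and 1999 bases for the 43 not called. Neither the difference between core and accessory genes nor the part of length in it was tested.

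**Figure D2:**
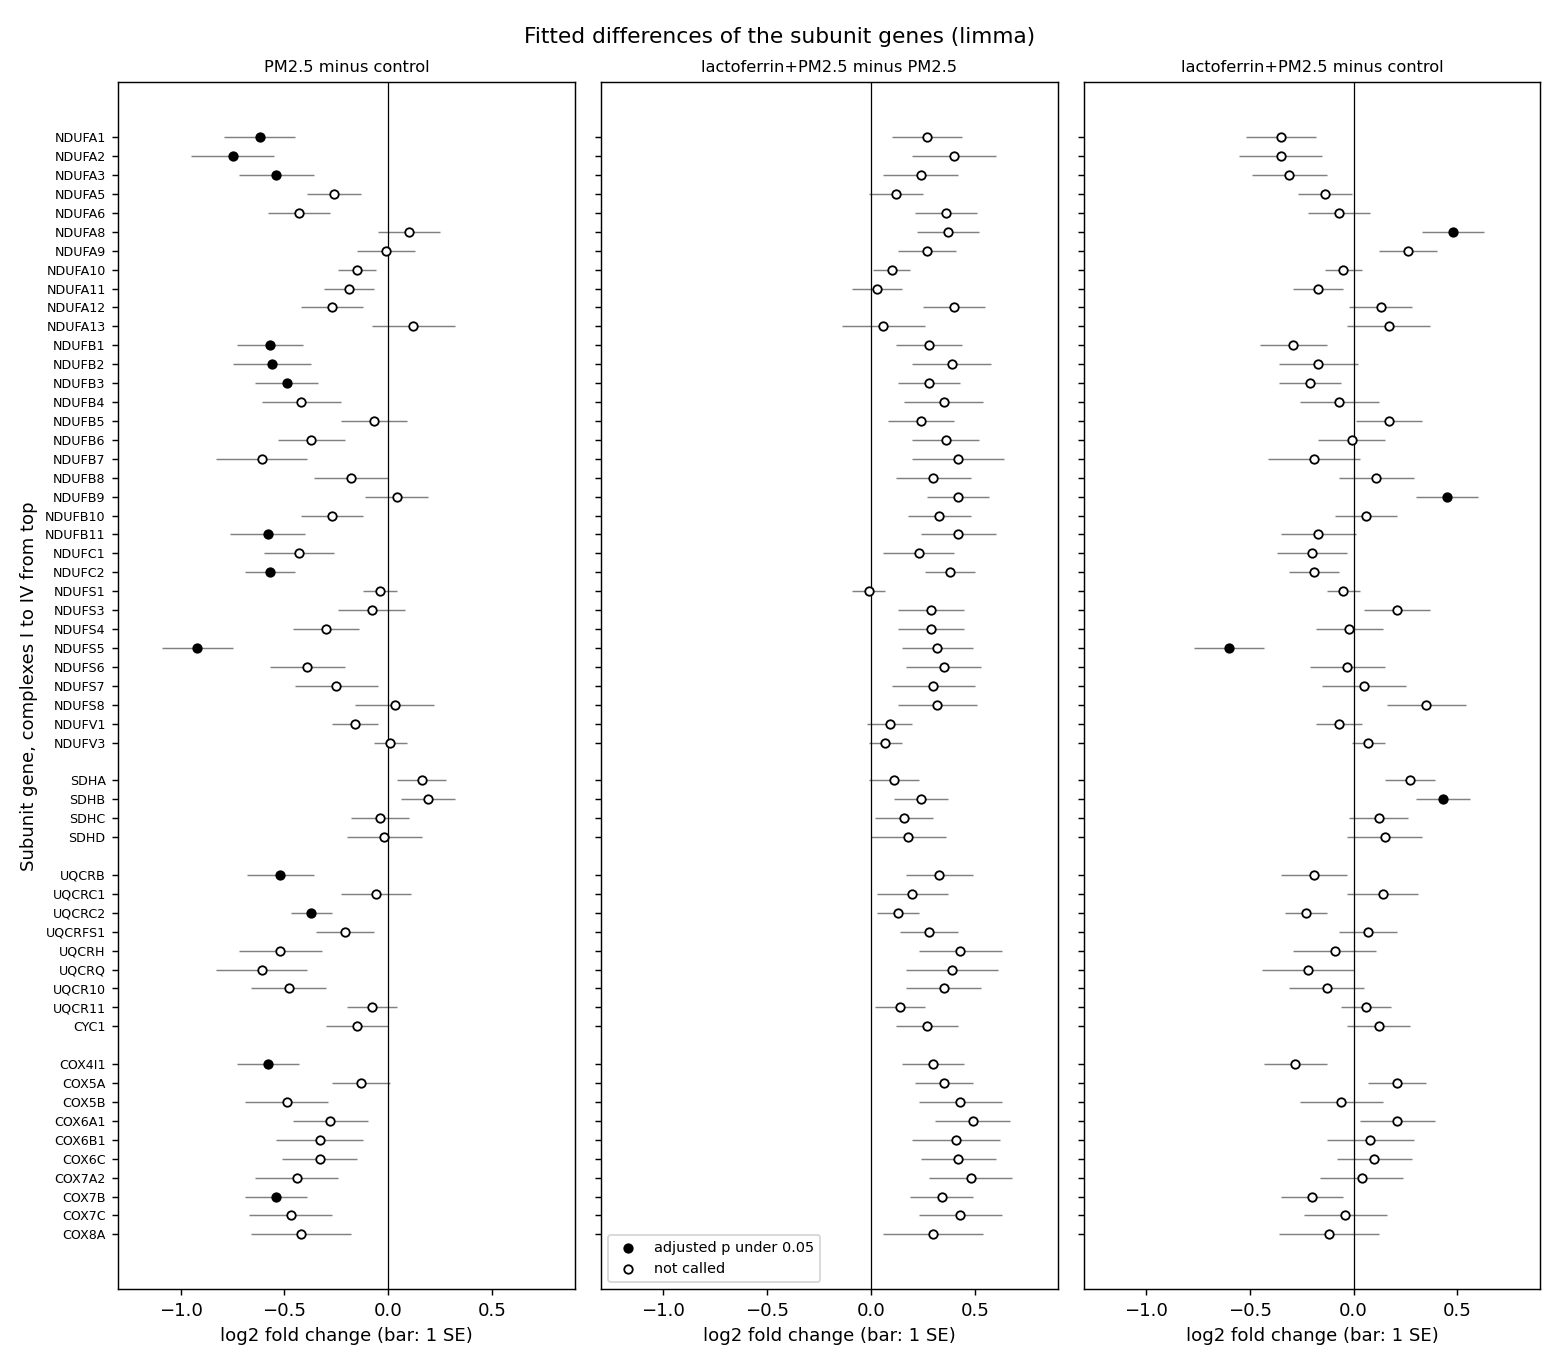
Log2 fold change of each tested subunit gene in the 3 comparisons (points, with SE as bars), by complex, with genes called by limma at an adjusted p under 0.05 marked. With PM2.5 against control 13 genes lie below 0 as called and 0 above, and in the contrast of lactoferrin plus PM2.5 with PM2.5 alone 55 of 56 lie above 0 and 0 are called.

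Replicates of a group differed along the same direction as the groups did. Of the 56 genes, 52 were highest in control 1 among the controls and 46 lowest in control 3. Replicate 1 was the highest for 44 genes with PM2.5 and for 52 with lactoferrin plus PM2.5. The mean level of the 56 genes relative to the control mean, on the log2 scale, was 0.21, -0.02 and -0.18 in the controls, -0.19, -0.34 and -0.37 with PM2.5, and 0.26, -0.03 and -0.26 with lactoferrin plus PM2.5. PM2.5 1 and control 3 were nearly level. The lactoferrin plus PM2.5 libraries spread over the range of the controls and beyond it at both ends.

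Within each group, 2 sets of genes outside the respiratory chain had the same order of libraries by their mean level as the subunit genes, although the order across groups was not the same. The 75 cytosolic ribosomal protein genes stood at 0.25, -0.01 and -0.24 in control, -0.26, -0.47 and -0.50 with PM2.5, and 0.24, -0.11 and -0.38 with lactoferrin plus PM2.5. With PM2.5 19 of these 75 fell and 0 rose, beside 16.5% lower and 18.5% higher over all tested genes. The median log2 fold change of the 75 was -0.43. The 99 other protein-coding genes with under 1000 exon bases, a set made after the values were seen, stood at 0.17, -0.02 and -0.14, then -0.27, -0.33 and -0.39, then 0.11, -0.13 and -0.35. The part of a property shared by short, abundant messenger RNAs in the subunit differences was not tested. With a trend on exon length removed within each library, 23 of the 56 genes fell with PM2.5, with a median log2 fold change of -0.27. Markers of cell types differed between the groups as well. Relative to control, the mean log2 level of the 5 tested simple epithelium markers was -0.46 with PM2.5 and -0.33 with lactoferrin plus PM2.5, that of the 3 fibroblast and endothelial markers -0.31 and -0.60, that of the 9 proximal tubule markers 0.18 and 0.26, and that of the 3 immune markers 0.57 and 0.93. The fibroblast and endothelial mean was negative with PM2.5 although the sum over all 10 markers given above was higher, and the immune mean rests largely on FCER1G. The part of these markers in the subunit differences was not tested.

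**Figure D3:**
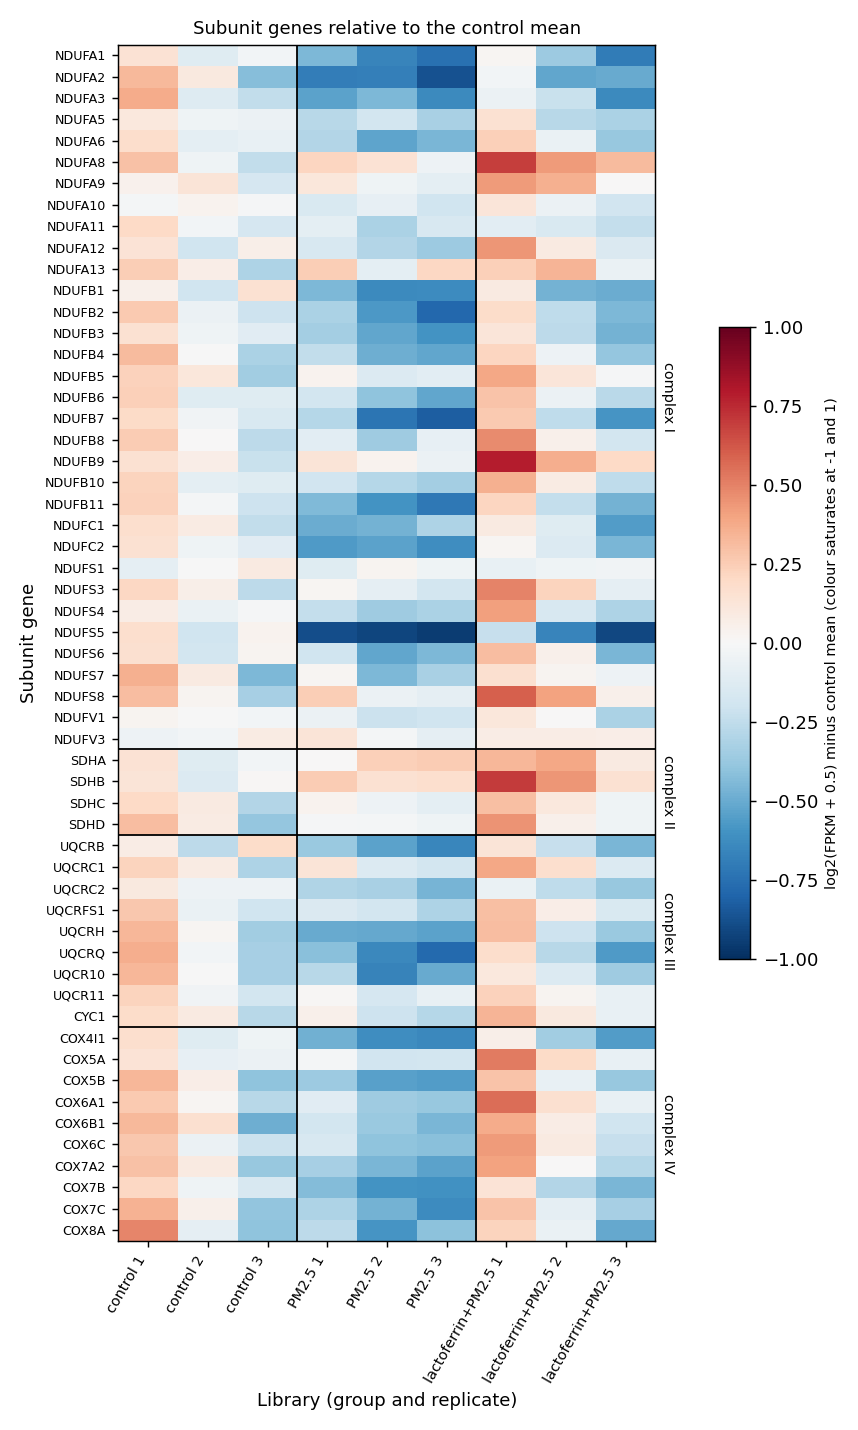
Level of each tested subunit gene in each library as the log2 difference from the gene's control mean, with genes in rows by complex and libraries in columns. Control 1 and lactoferrin plus PM2.5 1 are high for 52 of the 56 genes within their groups, and PM2.5 2 and 3 are low for most.

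**Figure D4:**
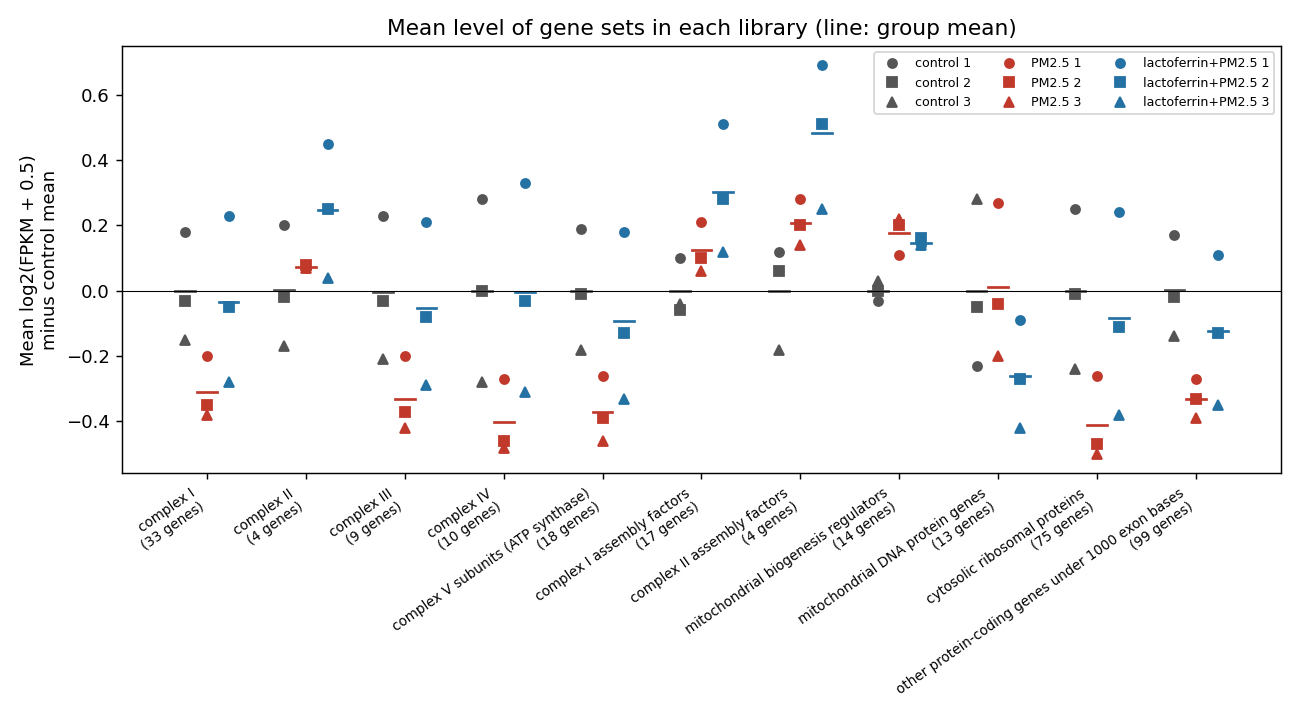
Mean level of each complex and of other gene sets in each library, as the log2 difference from the control mean, with 1 point per library coloured by group. Subunits of complexes I, III and IV, ribosomal protein genes and other short genes share the order of libraries within each group. Complex II shares that order in control and in lactoferrin plus PM2.5 but stays near 0.07 in the PM2.5 libraries.

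The count of genes lower with PM2.5 rested on single libraries. Without control 1 it was 2, without control 2 it was 7 and without control 3 it was 20. Without PM2.5 2 or PM2.5 3 it was 4 or 2, and without lactoferrin plus PM2.5 1, which enters only through the shared spread, it was 20. Without control 3 and lactoferrin plus PM2.5 1 together, a choice made after seeing the data, it was 32, with a median log2 fold change of -0.42. NDUFA3 was called in 15 of the 24 alternatives run and the other 10 calls beside NDUFS5 and NDUFC2 in 16 to 21. The median was negative in each of the 24.

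The second comparison asked how subunit genes differed when lactoferrin preceded PM2.5, against PM2.5 alone. None of the 56 genes was called (limma, Benjamini-Hochberg), where the background was 0.0208% higher and 0.0277% lower, so hardly any gene of the table was called here. The fitted difference was positive for 55 of the 56 genes, NDUFS1 being the exception, with a median log2 fold change of 0.30 against 0.00 over all tested genes. At an unadjusted p under 0.05, 10 were higher and 0 lower, where 5.18% of all tested genes were higher, and limma-voom on rebuilt reads also called 0. In 17 genes every library with lactoferrin plus PM2.5 was above every PM2.5 library, against 11.3% of all tested genes. The medians were 0.30, 0.17, 0.28 and 0.42 for complexes I to IV.

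Within each complex the largest fitted difference was as follows. For NDUFB7, the values given above overlapped, since lactoferrin plus PM2.5 3 lay within the PM2.5 range (log2 fold change 0.42 ± 0.22, adjusted p = 0.442, limma). For SDHB it was 0.24 ± 0.13 (adjusted p = 0.453, limma), again with overlap. UQCRH, with PM2.5 libraries nearly equal, gave 0.43 ± 0.20 without overlap (adjusted p = 0.418, limma). COX6A1, a complex IV subunit with shared exons, had 50.7, 42.3 and 32.2 FPKM in control, 38.6, 33.2 and 33.2 FPKM with PM2.5, and 61.6, 47.7 and 40.96 FPKM with lactoferrin plus PM2.5. Every lactoferrin plus PM2.5 library was above every PM2.5 library, but the log2 fold change of 0.49 ± 0.18 did not pass the test (adjusted p = 0.379, limma).

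The group's first replicate carried much of this difference. Without lactoferrin plus PM2.5 1 the median log2 fold change of the 56 genes was 0.17, and without lactoferrin plus PM2.5 3 it was 0.45. Leaving out lactoferrin plus PM2.5 1 together with control 3 also gave 0.17, with 0 genes called. PM2.5 libraries enter this comparison and the first with opposite sign, so a low value in them makes one difference negative and the other positive, and the pair of results is not 2 independent findings. The ribosomal protein genes gave a median of 0.34, with 74 of 75 positive and 0 called.

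The third comparison set lactoferrin plus PM2.5 against control. Of the 56 genes 3 were higher and 1 lower, against a background of 19.6% higher and 18.5% lower, so both shares were below that of all tested genes. The median log2 fold change was -0.04 (-0.01 over all tested genes), with 25 positive and 31 negative values. NDUFA8, a twin-cysteine subunit of the intermembrane space (ENSG00000119421, chromosome 9, 122144058 to 122159819, minus strand), had 70.01, 54.9 and 44.5 FPKM in control, 65.5, 63.6 and 56.6 FPKM with PM2.5, and 91.3, 77.6 and 73.2 FPKM with lactoferrin plus PM2.5. All its lactoferrin plus PM2.5 libraries were above all controls (log2 fold change 0.48 ± 0.15, adjusted p = 0.0324, limma). NDUFB9, a membrane-arm subunit (ENSG00000147684, chromosome 8, 124539101 to 124580648, plus strand), had 23.8, 22.2 and 16.9 FPKM in control, 23.1, 22.04 and 21.04 FPKM with PM2.5, and 36.8, 27.9 and 25.2 FPKM with lactoferrin plus PM2.5 (log2 fold change 0.45 ± 0.15, adjusted p = 0.0444, limma). The groups were separate here too, although the lowest lactoferrin plus PM2.5 library was close to the highest control.

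SDHB, with values as given above, was higher by a log2 fold change of 0.43 ± 0.13 (adjusted p = 0.0297, limma), its means being 33.5 ± 3.58 FPKM in control and 47.3 ± 8.05 FPKM with lactoferrin plus PM2.5 (SD, n = 3 each). All 4 complex II genes had positive differences, with a median of 0.21. NDUFS5 remained below control at -0.60 ± 0.17 (adjusted p = 0.0197, limma). The largest fitted differences of the other complexes were those of UQCRC2 (-0.23 ± 0.10, adjusted p = 0.0894) and COX4I1 (-0.28 ± 0.15, adjusted p = 0.173), neither called.

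These calls also moved with single libraries. Without lactoferrin plus PM2.5 1, 0 genes were higher and 9 lower, and without lactoferrin plus PM2.5 2, 0 were called at all. Without control 2 or without control 3, 0 were higher and 1 was lower. Without control 3 and lactoferrin plus PM2.5 1 together, 0 genes were higher and 14 lower, and the median log2 fold change was -0.25. NDUFA8, NDUFB9 and SDHB were not called in that last setting, nor in a fit of only the 2 groups compared. Of the 24 alternatives run, NDUFB9 was called in 11, NDUFA8 and SDHB in 17 each and NDUFS5 in 18. The NDUFB9 call was also lost with the length trend removed, with upper-quartile scaling and without any 1 of the PM2.5 libraries. NDUFS5 was not called in this comparison without control 1, control 3, lactoferrin plus PM2.5 2 or lactoferrin plus PM2.5 3.

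Genes that work with the subunits were counted in lists made by function. With PM2.5, 16.5% of all tested genes were lower and 18.5% higher, and with lactoferrin plus PM2.5 against control 18.5% and 19.6%. ATP synthase (complex V), which uses the proton gradient, had 5 of 18 genes lower with PM2.5 and 0 higher, all 18 fitted differences being negative. They included ATP5ME (10.6 to 6.98 FPKM, log2 fold change -0.62 ± 0.10, adjusted p = 0.00185, limma), ATP5IF1, an inhibitor of the enzyme (27.8 to 17.1 FPKM, -0.74 ± 0.17, adjusted p = 0.00948), and ATP5F1E (44.8 to 28.6 FPKM, -0.68 ± 0.18, adjusted p = 0.0162). Against PM2.5 alone, lactoferrin plus PM2.5 gave 0 calls in this list, and against control 1 lower, ATP5IF1. The 6 tested subunit genes outside the member list had 0 calls with PM2.5. NDUFAB1, the mitochondrial acyl carrier protein, was higher with lactoferrin plus PM2.5 than in control (11.3 to 17.8 FPKM, log2 fold change 0.57 ± 0.16, adjusted p = 0.0208, limma).

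Assembly factors, which build the complexes but are not part of them, had 10 higher and 2 lower calls with PM2.5 among 51 tested, beside 18.5% and 16.5% of all tested genes. By complex, 4 of 17 complex I factors rose and 1 fell, 1 of 4 complex II factors rose, 2 of 6 complex III factors rose, and 3 of 24 complex IV factors rose and 1 fell. TMEM186, a complex I factor, rose from 2.31 to 3.82 FPKM (log2 fold change 0.57 ± 0.11, adjusted p = 0.00377, limma), and COA1, a small inner membrane protein, fell from 3.68 to 2.59 FPKM (-0.48 ± 0.09, adjusted p = 0.00297). UQCC1, needed for cytochrome b synthesis in complex III, rose from 11.7 to 18.3 FPKM (0.58 ± 0.08, adjusted p = 0.0009), and SDHAF4 of complex II from 5.62 to 8.86 FPKM (0.59 ± 0.20, adjusted p = 0.0421). With lactoferrin plus PM2.5 against control, 8 of 17 complex I factors were higher and 1 lower. Of the factors of complexes II, III and IV, 3 of 4, 2 of 6 and 6 of 24 were higher with 0 lower. Over all tested genes 19.6% were higher and 18.5% lower in that comparison. Against PM2.5 alone no assembly factor was called.

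Among 14 regulators of mitochondrial biogenesis 7 rose with PM2.5 and 1 fell, beside 18.5% and 16.5% of all tested genes. The gene that fell was PPARGC1A, a coactivator that drives mitochondrial gene expression, from 2.15 to 0.526 FPKM (log2 fold change -1.42 ± 0.16, adjusted p = 0.000189, limma), and with lactoferrin plus PM2.5 it was at 0.48 FPKM. POLRMT, the mitochondrial RNA polymerase, rose from 7.59 to 13.8 FPKM (0.78 ± 0.09, adjusted p = 0.000306) and ESRRA, a nuclear receptor of energy genes, from 4.67 to 8.62 FPKM (0.79 ± 0.12, adjusted p = 0.00129). The 13 protein genes of mitochondrial DNA had 0 calls with PM2.5, with 7 positive and 6 negative differences; the lowest adjusted p was that of MT-CO1, at 0.141. With lactoferrin plus PM2.5 against control 3 of the 13 were lower: MT-ND6, MT-ATP8 and MT-ND5, by log2 fold changes of -0.75 ± 0.21, -0.72 ± 0.21 and -0.64 ± 0.20. Over all tested genes 18.5% were lower there. In that comparison nuclear and mitochondrial subunit genes had medians of -0.04 and -0.18.

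Of 14 tricarboxylic acid cycle enzymes 2 rose and 4 fell with PM2.5, where 18.5% of all tested genes were higher and 16.5% lower. OGDH rose from 24.4 to 42.1 FPKM (log2 fold change 0.72 ± 0.09, adjusted p = 0.00034, limma), IDH2 fell from 36.4 to 20.4 FPKM (-0.86 ± 0.12, adjusted p = 0.000682), and SUCLG1, which acts just before complex II in the cycle, fell from 16.2 to 11.1 FPKM (-0.58 ± 0.12, adjusted p = 0.00633). Of 15 genes for cytochrome c and coenzyme Q, the carriers between the complexes, 1 rose and 2 fell. COQ2, an early enzyme of coenzyme Q synthesis, fell from 7.43 to 4.19 FPKM (-0.81 ± 0.13, adjusted p = 0.00129), and PDSS2, which helps make its side chain, rose from 2.01 to 3.45 FPKM (0.62 ± 0.11, adjusted p = 0.00203). None of these genes was called between lactoferrin plus PM2.5 and PM2.5 alone.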

How the data were processed

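RNA of 9 HK-2 libraries, 3 per group by the sample labels, was analysed. The values deposited by the authors were taken as FPKM, a unit inferred from the values: multiplied by GENCODE v29 union exon length (58611 of 58884 identifiers), 85.9% to 87.2% of low values (up to 200 reads) were whole multiples of 1 step within 0.05. Per the submitters' processing notes, the tools included Trimmomatic 0.38, the aligner HISAT2 2.1.0 and the counter featureCounts 1.6.0, with build GRCh38. Annotation and strand setting: not given in the sources used here.

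Each library was scaled by its unweighted trimmed mean of M values (0.930 to 1.030). On log2(FPKM + 0.5), 1 model of 3 group means was fitted to all 9 libraries with limma 3.58.1 in R 4.3.3 (eBayes, trend and robust). Benjamini-Hochberg adjustment covered the 14454 genes with at least 0.5 FPKM in at least 3 libraries. The added 0.5 shrinks fold changes of low genes, and FPKM understates genes whose union exons exceed their transcripts. Members and lists were chosen with earlier results of these data known. All genes were accounted for, and values in every library are given for genes called in any comparison and, per complex, for the highest and lowest level and the largest difference in each comparison. Of other lists, up to 3 genes with the smallest adjusted p were named, and some results of these lists are not reported here. The fit was tested on simulated data. Alternatives covered scaling, filter, pseudocount (0.1 and 1), limma-voom, library weights, a length trend, a replicate block, a fit of 2 groups and leaving out libraries. Figures used matplotlib 3.10.9 in Python 3.11.15.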

Additional observations from a re-analysis of the deposited data

How the results depend on the processing

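With PM2.5 against control, 13 genes were called. The count was 2 with no filter on low values, 21 with only the 2 groups compared, 23 with the length trend removed and 38 with library weights (2 higher, 36 lower). It was between 2 and 20 when 1 library was left out, and 32 without control 3 and lactoferrin plus PM2.5 1 together, chosen after seeing the data. Between lactoferrin plus PM2.5 and PM2.5 alone, the count of 0 became 23 higher with library weights and was 0 in all other alternatives run, leave-one-out fits included. Between lactoferrin plus PM2.5 and control, the count of 4 became 0 with no filter, 0 with only the 2 groups compared and 14 with library weights. It ranged from 0 to 9 when 1 library was left out, and was 14, all lower, without control 3 and lactoferrin plus PM2.5 1 together, where the median log2 fold change moved from -0.04 to -0.25. The cause of these changes was not tested, beyond fewer libraries or more genes in the fit. Weights ran from 0.247 (lactoferrin plus PM2.5 1) to 3.70 and came from limma's gene-by-gene method, chosen after the default had not converged and its calls had been seen.

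Replicate numbers are shared by the groups, but no label ties them to a culture or day, and same-number libraries deviated together with correlations of -0.07 to 0.18, over 0.1 in 2 of 9 pairs. Of 9 libraries 7 correlated best with their own number, a hint from the data only. With a replicate block the counts were 25 with PM2.5 against control and 7 between lactoferrin plus PM2.5 and control, and with the length trend removed together with the block they were 28 and 19. The ETS letters CCGGAAGT in place of CCGGAAG were in 16% of the 50 promoters and 4.44% of all, against 30% and 10.7%. No called gene changed direction under any alternative run.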
